A study of Mus musculus with 24 samples.

Results

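Endometriotic lesions collected 3 months after surgery were compared with lesions collected 1 month after surgery in a mouse model of endometriosis. The members are all libraries labelled as ectopic tissue, 4 at 1 month and 4 at 3 months, which make up 8 of the 24 libraries of the series. The other 16 libraries are uterus: eutopic uterus of mice with endometriosis and uterus of sham-operated mice, at both times. The lesion libraries are called lesions 1 to 4 at each time, by the replicate number in their labels. Levels are given as CPM, the reads of a gene divided by the TMM-scaled size of its library, and they compare libraries for 1 gene but not genes with each other.

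Mice of a mixed C57BL/6 and SV129 background had surgery at 8 weeks of age, and tissue was taken on pregnancy day 3.5. The lesion libraries of both times are labelled Pgrcre/+Rosa26mTmG/+. Pgrcre places Cre recombinase at the progesterone receptor locus, and mTmG is a membrane reporter that Cre switches from one fluorescent protein to another. The mice with lesions are labelled fertile at 1 month and subfertile at 3 months, and those at 3 months were also older, so time after surgery, age and fertility status cannot be told apart. The eutopic uterus libraries are labelled Rosa26mTmG/+ without the Cre allele, whereas the text of the series gives the Cre genotype for the mice with endometriosis. The labels do not tie the libraries to separate animals, so a p-value here measures the spread between samples, which may be technical.

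Endometriosis is the growth of endometrium-like epithelium and stroma outside the uterus, where it attaches to peritoneum and neighbouring organs. In normal endometrium, progesterone acts on the epithelium to induce Indian hedgehog, which signals to the stroma through GLI factors, and stromal HAND2 then restrains the epithelial response to estrogen. Lesions are known for a weakened progesterone response, infiltration by immune cells and deposition of matrix, and with age they can become scarred.

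The genes whose change between the times in lesions differed from that in eutopic uterus are shown first by their promoters, since members of this small set moved in opposite directions. Of 5 protein-coding genes that passed this test and reached 10 CPM in a lesion library, 4 had 1 promoter entry in RefSeq (Pla2g10, Pllp, Fabp3 and Lrrc2), and Nptx1 is named only. The windows are the 250 bases before each annotated start, from the GRCm38.p6 build, 5′ to 3′ on the strand of the gene. They lie at chr16:13730485-13730734 on the minus strand for Pla2g10, chr8:94696243-94696492 on the minus strand for Pllp, chr4:130308488-130308737 on the plus strand for Fabp3 and chr9:110951295-110951544 on the plus strand for Lrrc2. Capitals mark matches to the motifs searched.
Pla2g10: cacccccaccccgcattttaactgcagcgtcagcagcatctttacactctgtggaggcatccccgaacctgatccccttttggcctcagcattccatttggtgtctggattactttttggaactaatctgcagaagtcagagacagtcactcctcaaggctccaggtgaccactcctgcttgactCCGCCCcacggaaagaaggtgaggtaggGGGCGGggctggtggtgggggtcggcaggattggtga
Pllp: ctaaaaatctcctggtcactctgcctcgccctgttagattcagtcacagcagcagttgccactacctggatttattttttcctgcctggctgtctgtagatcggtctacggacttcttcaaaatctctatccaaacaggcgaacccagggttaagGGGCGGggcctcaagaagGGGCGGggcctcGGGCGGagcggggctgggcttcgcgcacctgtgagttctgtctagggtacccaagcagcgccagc
Fabp3: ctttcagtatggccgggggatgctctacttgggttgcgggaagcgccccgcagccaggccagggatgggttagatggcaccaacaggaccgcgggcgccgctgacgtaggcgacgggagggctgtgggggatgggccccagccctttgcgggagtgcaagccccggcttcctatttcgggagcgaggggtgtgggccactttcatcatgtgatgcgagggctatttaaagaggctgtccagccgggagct
Lrrc2: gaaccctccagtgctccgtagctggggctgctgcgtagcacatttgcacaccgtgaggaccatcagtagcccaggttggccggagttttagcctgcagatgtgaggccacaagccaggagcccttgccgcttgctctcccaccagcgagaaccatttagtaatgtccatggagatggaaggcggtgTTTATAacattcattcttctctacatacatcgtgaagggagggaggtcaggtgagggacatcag

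6 motifs were searched on both strands. They included the estrogen response element (GGTCA, 3 free bases, TGACC), the progesterone response element (GNACA, 3 free bases, TGTNC) and the estrogen-related receptor site TCAAGGTCA. The others were the E-box form CAGCTG, the TATA box TATAAA and the GC box GGGCGG. Other forms of the E-box were not searched. Pllp, lower in lesions at 3 months, held 3 GC boxes, at 95, 77 and 65 bases before the start. Pla2g10, also lower, held 2, at 65 and 37 bases before it. The GC box occurred in 32.742% of the 32851 promoter windows of the same length, so its presence is common. Lrrc2, higher at 3 months, held 1 TATA box on the reverse strand (written TTTATA in the window), a motif found in 12.368% of windows. None of the 6 motifs matched in the Fabp3 window. The other 4 motifs, with no match in any of the 4 windows, occurred in 0.064% of all windows for the estrogen response element, 0.387% for the progesterone response element, 0.387% for the estrogen-related receptor site and 13.001% for the E-box. These letters describe the windows and are not evidence of binding.

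Before the comparison, each lesion library was set against markers of uterus and of neighbouring organs. At 1 month the 4 libraries carried uterine identity genes within or below the range of eutopic uterus. Hoxa10, a homeobox gene of the uterus, was at 366, 230, 355 and 264 CPM in lesions 1 to 4 at 1 month. At 3 months it was at 0.84, 13.5, 231 and 111 CPM, with 361 to 419 CPM in the 8 eutopic libraries. Lesions 1 and 2 at 3 months therefore held little RNA of this gene, lesion 3 was at the level of the lowest 1-month library, and lesion 4 lay between.

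**Figure D1:**
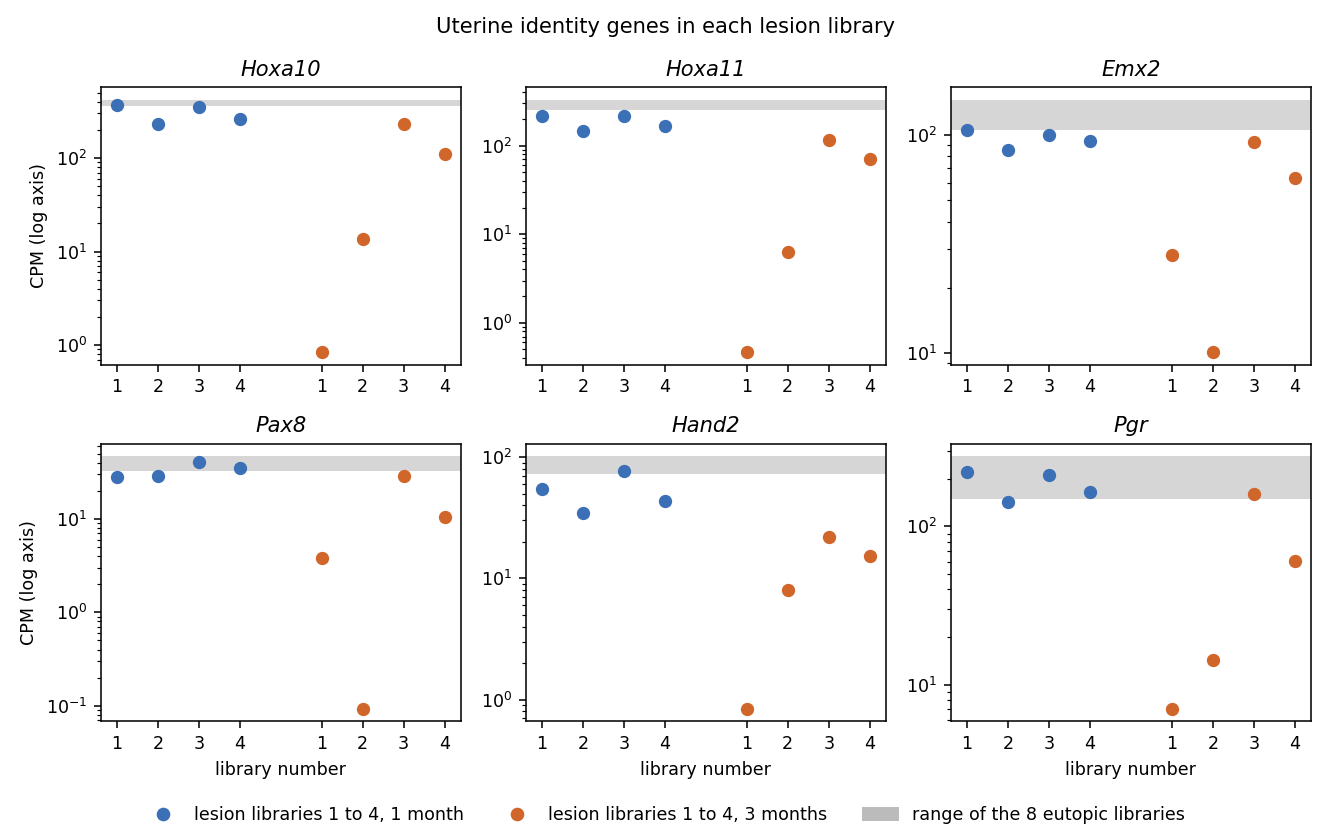
Level (CPM, log axis) of 6 uterine identity genes in each lesion library, with blue points for 1 month, orange points for 3 months and a grey band for the range of the 8 eutopic libraries. Lesion 1 at 3 months is lowest for Hoxa10 (0.84 CPM), Hoxa11 (0.467 CPM), Hand2 and Pgr, lesion 2 is lowest for Emx2 and Pax8, and lesion 3 is closest to the 1-month libraries.

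Lesion 1 at 3 months held transcripts of the ovary. Cyp11a1, the enzyme of the first step of steroid synthesis, was at 7541 CPM there, and at 78.7, 2.02 and 2.72 CPM in lesions 2 to 4 at 3 months. Lhcgr, the luteinizing hormone receptor, was at 2137 CPM, Inha, an inhibin subunit, at 1053 CPM, and Zp3, an egg coat protein, at 24.04 CPM against at most 0.209 CPM in any other lesion library. The 20 ovary genes summed to 26730.0 CPM in this library, 404.5 CPM in lesion 2 at 3 months and 109.6 to 160.9 CPM in the other 6. In the same library the summed T cell genes (69.3 CPM) and macrophage genes (1019 CPM) were the lowest of the 8.

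Lesion 2 at 3 months held skeletal muscle and fat and almost no epithelium. The 22 skeletal muscle genes summed to 73278 CPM there, 23915 CPM in lesion 3 and 12834 CPM in lesion 4 at 3 months, but to 104.8 CPM in lesion 1. At 1 month they summed to 279.2, 2124, 253.3 and 150.9 CPM in lesions 1 to 4, against 132.8 to 192.1 CPM in eutopic uterus. The 14 adipocyte genes summed to 5346 CPM in lesion 2 and to at most 1309.7 CPM in the other lesions at 3 months. Epcam, an epithelial adhesion molecule, was at 25.8, 5.32, 144 and 88.1 CPM in lesions 1 to 4 at 3 months and at 85.1 to 123 CPM at 1 month. Lesions 3 and 4 held this epithelial marker as well as muscle.

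Lesion 2 at 1 month held pancreas. Ctrb1, a digestive protease precursor, was at 25582 CPM there and at most 4.29 CPM in the other 7 lesion libraries. The summed pancreas list took 137650 CPM, or 13.8% of this library, and 6.87 to 35.7 CPM elsewhere. Several pancreatic proteases belong to families of near-identical copies, and the split of their reads is uncertain. Defining liver and intestine genes were low in each lesion, with Alb at most 7.44 CPM, Apoa1 at most 15.1 CPM and Vil1 at most 4.84 CPM (the last 2 in lesion 1 at 3 months), Cdx1 at most 0.0396 CPM and Fabp2 at most 0.0187 CPM in any lesion, and 3 or fewer reads can give the levels of Cdx1 and Fabp2. The summed liver list reached 101.7 CPM in lesion 2 at 3 months and 98.9 CPM in lesion 4 at 1 month, above the eutopic maximum of 28.6 CPM, and Cyp2e1, a cytochrome P450 enzyme, made up 88.3 and 95.98 CPM of these sums.

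**Figure D2:**
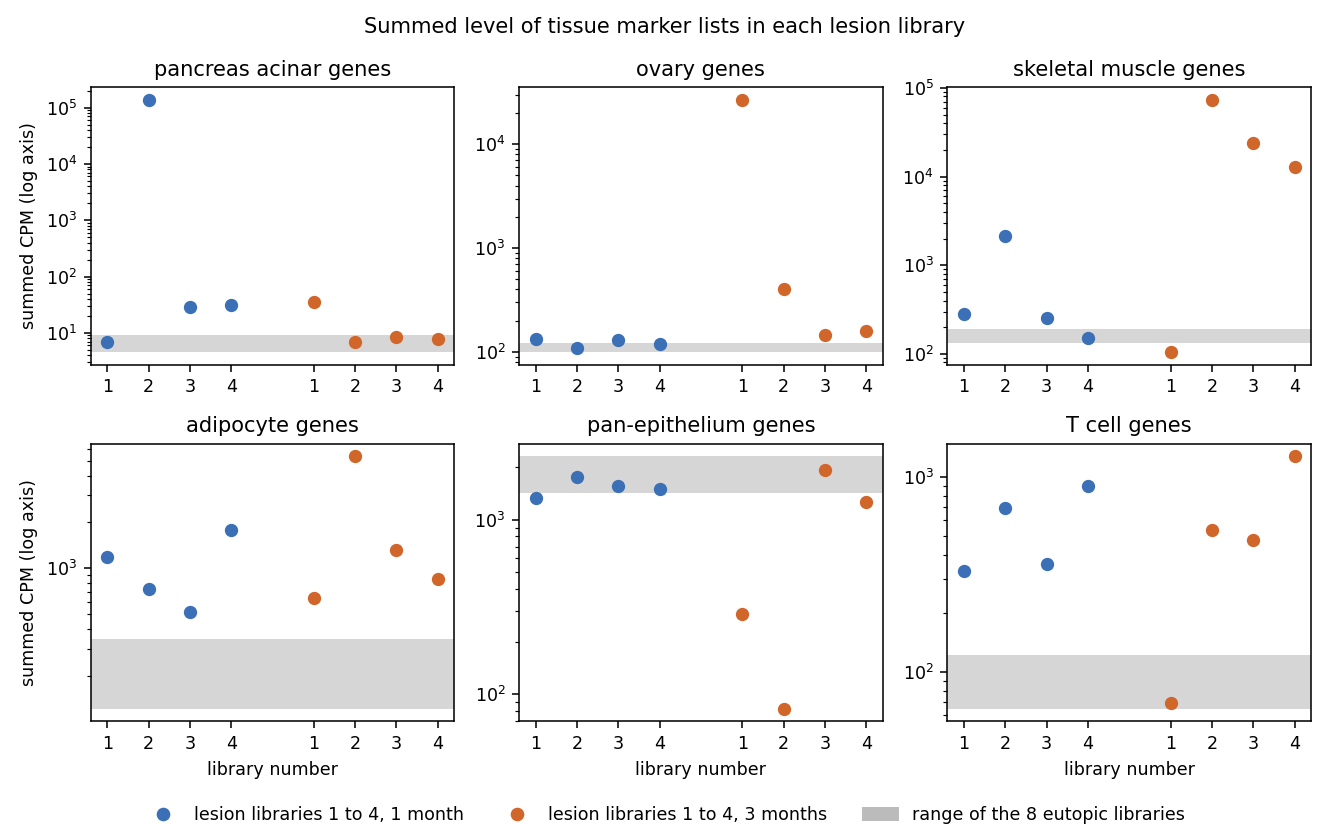
Summed level (CPM, log axis) of 6 marker lists in each lesion library, with blue points for 1 month, orange points for 3 months and a grey band for the eutopic range. The pancreas list stands out in lesion 2 at 1 month (137650 CPM), the ovary list in lesion 1 at 3 months (26730.0 CPM), and the muscle list in lesions 2, 3 and 4 at 3 months.

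Genes high in 1 library alone were counted as those with at least 10 CPM in that library and at least 8 times the level in each of the other 7. There were 246 in lesion 1 at 3 months, led by the steroid-synthesis genes Cyp11a1, Hsd3b1, Star and Hsd17b7. Lesion 2 at 1 month had 84, led by the pancreatic genes Ctrb1, Pnlip, Cela1 and Cpb1. Lesion 2 at 3 months had 13, including the muscle genes Mybph, Sbk2 and Myh6 and the integrin Itgad. Lesion 4 at 1 month had 5, among them Prap1 (327 CPM against at most 25.7 elsewhere), Guca2b, Kap and Havcr1. Lesion 3 at 3 months had 1, Arg1, the arginase of alternatively activated macrophages and neutrophils, at 493 CPM against at most 36.4 elsewhere. The other 3 libraries had 0. Most listed muscle genes were high in lesions 2 to 4 at 3 months together and so did not enter these counts.

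Total counts ran from 45133642 to 59142371 reads per lesion library. Across genes, which are not independent replicates, log2 CPM correlated at 0.959 to 0.984 among lesions at 1 month, at 0.837 to 0.975 among those at 3 months, and at 0.860 to 0.964 between the times. In these bulk libraries fewer cells of a type and less RNA per cell cannot be told apart. A count of 0 allows up to 3 counts, which is 0.0524 to 0.0798 CPM in these libraries, and this covers counting error only.

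In edgeR's quasi-likelihood test on the 8 lesion libraries, 0 of 19979 genes passed a Benjamini-Hochberg adjusted p under 0.05, and the smallest adjusted p was 0.243. At an unadjusted p under 0.05 there were 2697 genes (13.5% of those tested), 1419 higher (7.10%) and 1278 lower (6.40%) at 3 months. DESeq2 called 1038 genes and limma voom with sample weights called 2, Lrrc38 and 9830004L10Rik, both higher at 3 months. Without lesion 3 at 3 months edgeR called 1 gene, Gm43305. With all 24 libraries sharing 1 estimate of spread, edgeR called 2435 of 22249 genes, 1450 higher (6.52%) and 985 lower (4.43%). Most libraries in the fit of all 24 are uterus, so the shared estimate may understate the spread of lesions. Log2 CPM correlated as low as 0.837 among lesions at 3 months. Calls from the fit of all 24, here and in the gene lists below, are therefore not separate support for a difference. A fit with lesions 1 and 2 at 3 months and lesion 2 at 1 month left out together leaves 2 libraries against 3. It called 285 of 20817 genes higher (1.37%) and 47 lower (0.226%). Both lesions left at 3 months held muscle genes (23915 and 12834 CPM summed), against 150.9 to 279.2 CPM in those left at 1 month. Muscle content and time therefore cannot be told apart in that fit. Muscle genes such as Myh4, Ckm and Ttn were among the genes called higher.

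Genes were counted as shared when each library at 3 months lay above, or below, each library at 1 month. This held for 831 genes higher (4.16%) and 1099 lower (5.50%) at 3 months. In 55 of the higher genes the lowest 3-month library was at least 2 times the highest 1-month library, and in 49 of the lower genes the reverse held. Of the 285 genes called higher without the 3 libraries, 59 (20.7%) were also shared over all 8, and of the 47 called lower 25 (53.2%) were. Both fits use the same remaining libraries, so these shares are not to be set against 4.16% and 5.50%. Without the 3 libraries the groups did not overlap in 3828 genes higher and 4449 lower, of which 831 and 1099 were shared over all 8. Without lesion 1 at 3 months the shared genes numbered 2088 higher and 2334 lower, and without lesion 3 at 3 months 1417 and 1825. Without lesion 4 at 3 months 1394 were higher, and without lesion 2 at 1 month 1663 were lower. Without lesion 3 at 1 month the counts were the lowest of the 8, at 958 higher and 1165 lower, and without lesion 2 at 3 months they were 1038 and 1310. By its definition such a count cannot fall when a library is left out, so growth alone is not a result. The amounts differed between libraries.

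A small group of genes stood far lower in every 3-month lesion, also in lesions 3 and 4, which held Epcam and Hoxa10. Hoxa10 in lesion 4 was at 111 CPM, below the 230 to 366 CPM of the 1-month libraries. The genes named here had the smallest unadjusted p among shared genes, and none of them passed the adjusted test on the 8 libraries (adjusted p = 0.243 for each by edgeR). Pllp, plasmolipin, a membrane protein of myelin and epithelia, was at 41.1, 12.9, 30.4 and 19.8 CPM in lesions 1 to 4 at 1 month and at 1.21, 1.72, 3.03 and 0.844 CPM at 3 months. The groups were far apart, with 36.2 to 85.7 CPM in eutopic uterus, and the log2 fold change was -3.95 ± 0.54 (SE). Its mean was 26.03 ± 12.3 CPM at 1 month and 1.703 ± 0.957 CPM at 3 months (SD, n = 4).

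Rims3, of a family that organises vesicle release, was at 70.2, 29.0, 79.6 and 47.1 CPM at 1 month and at 1.83, 2.67, 8.88 and 2.40 CPM at 3 months. Lesion 3 was the highest at 3 months and still under the lowest at 1 month (log2 fold change -3.86 ± 0.62). Nptx1, neuronal pentraxin 1, a secreted protein, was at 13.7, 4.71, 7.98 and 8.61 CPM at 1 month and at 1.49, 1.91, 1.88 and 1.05 CPM at 3 months (log2 fold change -2.48 ± 0.38). Shisal1, a membrane protein of the shisa-like family, was at 10.9 to 14.6 CPM at 1 month and at 1.31 to 2.91 CPM at 3 months. Hook1, an adaptor between endosomes and microtubules, was at 71.9 to 163 CPM and at 19.9 to 40.8 CPM. Without the 3 libraries, Shisal1 (log2 fold change -2.67, adjusted p = 0.0387 by edgeR) and Nptx1 (-2.80, 0.0455) passed, and Pllp (-3.99, 0.0623), Hook1 (-2.08, 0.0626) and Rims3 (-3.56, 0.0726) did not.

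Pla2g10, a secreted phospholipase A2 picked with its values known, had a larger difference at a lower level. It was at 18.3, 2.95, 19.4 and 13.97 CPM at 1 month and at 0.149, 0, 0.396 and 0.0633 CPM at 3 months. Eutopic uterus held 16.7 to 49.6 CPM at both times, so the 3-month lesions stood apart from both sets of uterus as well as from younger lesions. The log2 fold change was -6.47 ± 1.13 over the 8 libraries, and -6.22 without the 3 libraries (adjusted p = 0.0201 by edgeR). Epithelial markers differed in direction in lesion 3 at 3 months, where Pla2g10 was at 0.396 CPM. Epcam (144 CPM) and Krt8 (156 CPM) were above every 1-month library, and Cdh1 (219 CPM against 226 to 249 CPM) was below them. Of 20 epithelial genes, 5 lay below each 1-month library in all 3-month lesions, Cdh1 among them.

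**Figure D3:**
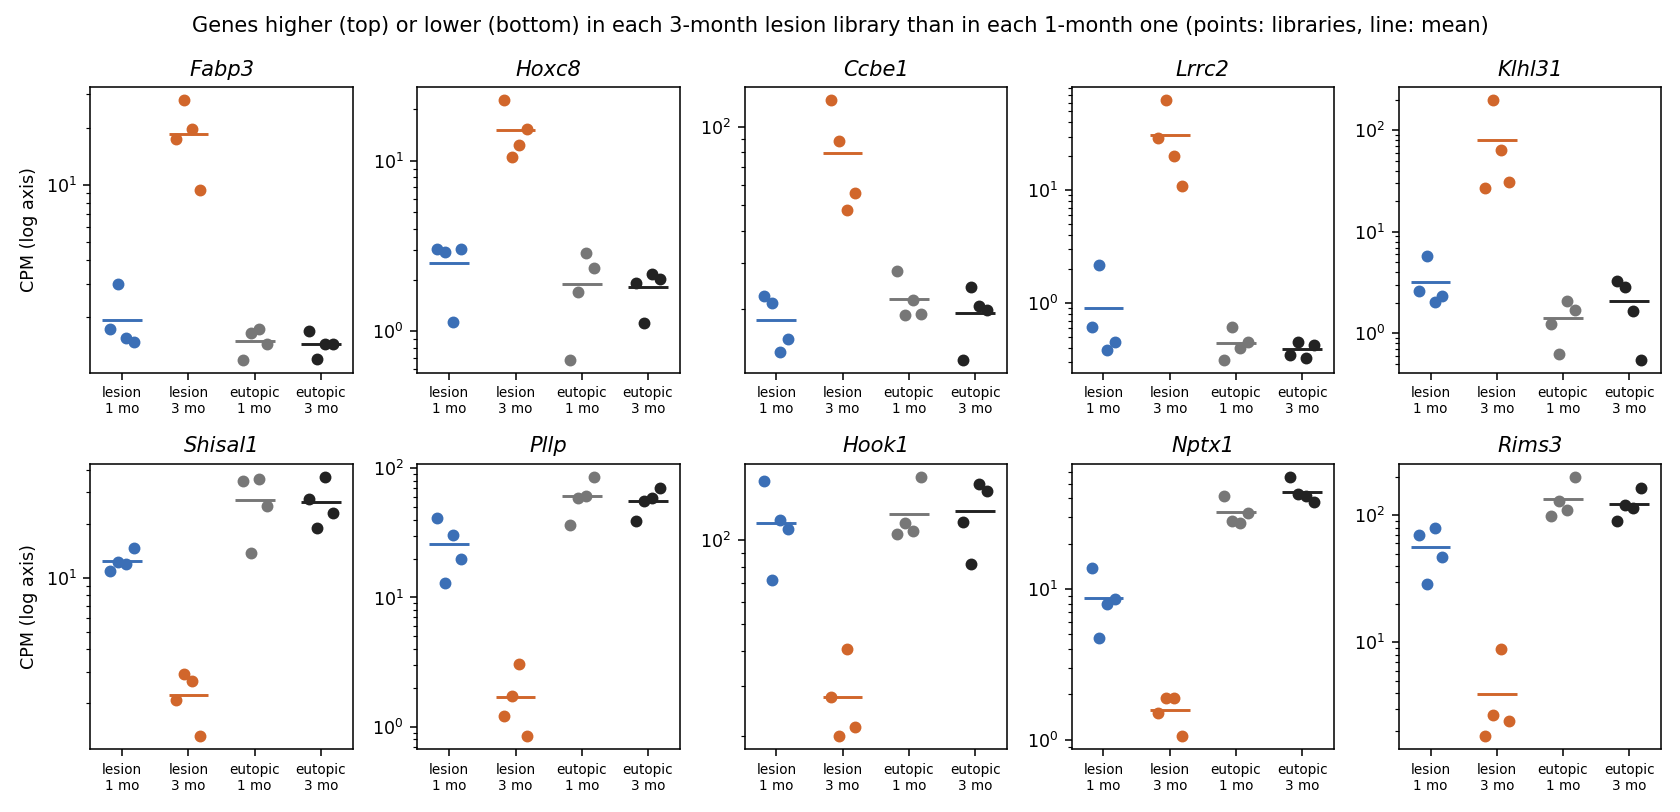
Level (CPM, log axis) of the 5 higher and 5 lower shared genes with the smallest unadjusted p, in lesions and eutopic uterus at 1 and 3 months. Points are libraries and lines are means of 4, and in each panel the orange points of the 3-month lesions lie outside the range of the other 3 groups.

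Among genes higher in every 3-month lesion, several are known from muscle. Fabp3, the fatty acid binding protein of heart and skeletal muscle, was at 1.73, 2.98, 1.54 and 1.47 CPM at 1 month and at 17.4, 27.96, 19.7 and 9.43 CPM at 3 months. The groups did not overlap, and eutopic uterus was at 1.19 to 1.73 CPM (log2 fold change 3.26 ± 0.41). Lrrc2, a leucine-rich repeat protein of heart and muscle, was at 0.608, 2.15, 0.385 and 0.454 CPM and at 29.4, 62.9, 19.999 and 10.99 CPM (log2 fold change 5.10 ± 0.84). Klhl31, a kelch-family protein of muscle, was at 2.63, 5.75, 2.02 and 2.31 CPM and at 27.0, 198, 63.8 and 31.1 CPM (4.66 ± 0.80).

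The levels of these genes were set beside those of the defining muscle markers. In lesions 2 to 4 at 3 months they were high where Acta1, Ckm, Myh4 and Tnnt3, the defining muscle markers, were high (773 CPM or more). In lesion 1 at 3 months these 4 markers were at 0.486, 0.299, 0.0374 and 0.84 CPM, and Fabp3 was at 17.4 CPM and Lrrc2 at 29.4 CPM. That library held ovary transcripts (26730 CPM summed), and the source of its Fabp3 and Lrrc2 RNA was not tested. The 2 other genes named by the same rule are not muscle genes. Hoxc8, a homeobox gene of the trunk, was at 1.14 to 3.06 CPM at 1 month and at 10.6 to 22.6 CPM at 3 months. Ccbe1, a secreted protein needed for lymphatic growth through VEGFC, was at 22.4, 21.1, 13.8 and 15.5 CPM and at 126, 88.2, 48.0 and 55.7 CPM. Without the 3 libraries Fabp3 (log2 fold change 3.18, adjusted p = 0.0201 by edgeR), Lrrc2 (4.98, 0.00704), Klhl31 (4.34, 0.00798) and Ccbe1 (1.57, 0.0463) passed, and Hoxc8 (2.51, 0.0713) did not. Both 3-month lesions in that fit, 3 and 4, held muscle, so muscle content and time cannot be told apart there.

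Skeletal muscle genes had the largest positive median of the 40 lists. All 22 listed members had a positive log2 fold change over the 8 libraries, with a median of 5.60 against 0.05 for all genes tested, and 0 passed the test on the 8 libraries. Only Ryr1, the calcium release channel of muscle, was shared, at 4.13, 45.2, 2.57 and 5.36 CPM at 1 month and at 72.4, 1845, 556 and 344 CPM at 3 months. Neb, the thin filament ruler nebulin, was at 7.62, 53.6, 4.64 and 8.49 CPM and at 20.5, 2478, 742 and 370 CPM, so that lesion 1 at 3 months lay within the 1-month range. Without lesion 1 at 3 months all 22 members were shared and higher, where 2088 of all 19979 genes tested were. Without the 3 libraries 18 of 22 passed the edgeR test as higher, where 1.37% of all genes did, with a median log2 fold change of 7.88. Lesion 2 at 1 month, the library with pancreas, was also the one with the most muscle RNA at that time.

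Ovary genes followed lesion 1 at 3 months, and at low level a few of them were also higher in the rest. Of 14 tested members 5 were shared and higher (Cyp11a1, Star, Hsd3b1, Lhcgr and Inhba), where 4.16% of all genes were, of which Star, Hsd3b1 and Inhba were chosen after their values were seen. Cyp11a1 was at 0.161, 0.372, 0.202 and 0.716 CPM at 1 month, below each 3-month value given above, with 0.0846 to 0.346 CPM in eutopic uterus. Lhcgr was at 0.297 and 0.527 CPM in lesions 3 and 4 at 3 months, and at most 0.107 CPM at 1 month. Both 3-month values lay within the 0.116 to 0.577 CPM of eutopic uterus. Hsd3b1, which makes progesterone, had no read in any 1-month lesion and was at 6100, 59.9, 1.17 and 1.73 CPM at 3 months. Inhba, an activin subunit that many tissues make, was at 26.4 to 32.8 CPM at 1 month and at 1326, 64.8, 74.3 and 72.9 CPM at 3 months. The median log2 fold change of the ovary genes was 4.53 over the 8 libraries and 0.67 without the 3, where Hsd3b1 and Inhba passed the edgeR test as higher (adjusted p = 0.0349 and 0.0144). In lesions 3 and 4 at 3 months Zp3 had no read and Inha was at 3.21 and 2.49 CPM, within the 1-month range of 2.24 to 3.64. The source of the low ovary-gene levels in those lesions was not tested.

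Cell-cycle genes were lower in each of the 3-month lesions, taken by their median. All 24 tested members had a negative log2 fold change, with a median of -1.001 against 0.05 for all genes tested. 19 of 24 were shared and lower, where 5.50% of all genes were. None passed the test on the 8 libraries. With all 24 libraries in the fit 14 passed as lower, where 4.43% of all genes did, but the spread shared there may be too small for lesions. Without the 3 libraries 0 passed, and the median was -0.86.

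Mki67, the Ki-67 proliferation antigen, was at 178, 176, 256 and 180 CPM at 1 month and at 116, 50.6, 110 and 123 CPM at 3 months, and Top2a, the topoisomerase of dividing cells, at 206 to 324 CPM and at 40.4 to 130 CPM. Both were chosen after their values were seen. Mcm5, a subunit of the replicative helicase, was at 53.3, 64.3, 90.3 and 64.6 CPM at 1 month and at 30.2, 19.4, 35.7 and 37.1 CPM at 3 months (log2 fold change -1.18 ± 0.24, adjusted p = 0.253 by edgeR). Its partners Mcm2 (log2 fold change -0.99 ± 0.27) and Mcm4 (-0.74 ± 0.16) were lower in each 3-month lesion. Eutopic uterus held Mcm5 at 33.99 to 48.6 CPM, so 1-month lesions lay above the uterus for this gene and 3-month lesions near or below it.

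The cell-cycle difference was present in lesions with little Epcam and in those with Epcam within or above its 1-month range. Relative to the mean of the 1-month libraries, the median cell-cycle gene was at 0.643, 0.250, 0.605 and 0.543 in lesions 1 to 4 at 3 months, and at 0.864 to 1.35 in the 1-month libraries. The summed list was at 919, 455, 892 and 901 CPM at 3 months and at 1289, 1343, 1947 and 1395 CPM at 1 month. Lesion 2 at 3 months, the one with most muscle and fat, was the lowest, and lesion 3 at 1 month the highest. Lesion 1 at 3 months, also below each 1-month library, had a muscle sum of 104.8 CPM and an ovary sum of 26730.0 CPM. The part of RNA from other tissues in this difference was not tested.

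**Figure D4:**
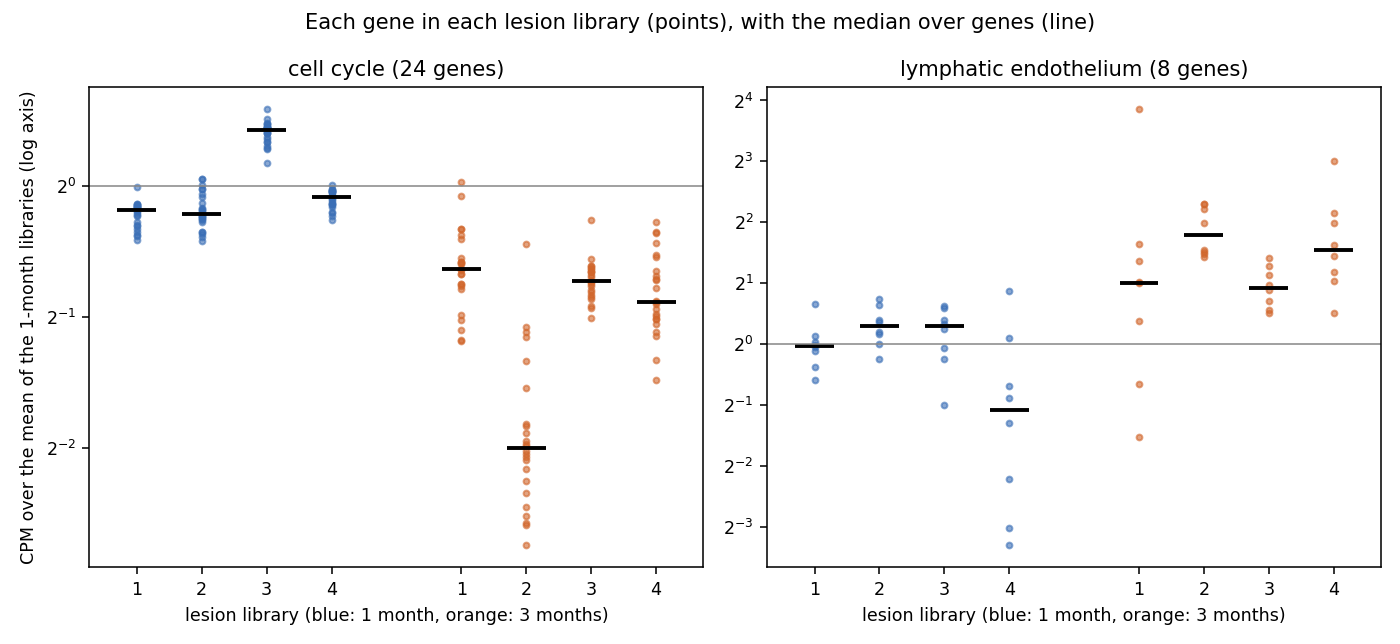
Each cell-cycle gene (left, 24 genes) and lymphatic endothelial gene (right, 8 genes) in each lesion library, as CPM divided by the mean of the 4 libraries at 1 month (log axis, blue for 1 month and orange for 3 months), with black lines for the median over genes. The median cell-cycle gene lies at 0.250 to 0.643 at 3 months, and the median lymphatic gene at 1.89 to 3.45.

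Members of the endometrial stroma list, which holds homeobox factors, steroid receptors and matrix genes of fibroblasts, mostly had negative log2 fold changes (18 of 20). Of 20 listed members 9 were shared and lower (Hand2, Hoxa11, Hoxd10, Hoxd11, Pdgfra, Twist2, Vcan, Msx1 and Hsd11b2) and 1 was shared and higher (Lrp1), where 5.50% and 4.16% of all genes were. The median log2 fold change was -1.21, and -0.88 without the 3 libraries. 0 of 20 passed on the 8 libraries, and 8 passed as lower with all 24 libraries in the fit, where 4.43% of all genes did. The summed list was at 6422, 4445, 5351 and 5564 CPM at 1 month and at 2382, 7983, 4685 and 4387 CPM at 3 months, so by this measure lesion 2 at 3 months was the highest of the 8. Dcn, decorin, a matrix proteoglycan of fibroblasts, made up 4824 CPM of that sum. Hsd11b2, which inactivates glucocorticoid, was at 100.2, 40.03, 106 and 86.6 CPM at 1 month and at 16.5, 3.09, 29.6 and 8.37 CPM at 3 months. The groups did not overlap, and both lay below eutopic uterus (196 to 308 CPM). Its log2 fold change was -2.56 ± 0.66 (adjusted p = 0.262 by edgeR).

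Among the rest of this list, Esr1, the estrogen receptor of stroma and epithelium, was at 441, 253, 428 and 323 CPM at 1 month and at 134, 102, 272 and 160 CPM at 3 months. Here the groups overlapped, because lesion 3 at 3 months exceeded lesion 2 at 1 month (log2 fold change -1.14 ± 0.33, adjusted p = 0.275 by edgeR). Msx1, a homeobox gene picked with its values known, was at 70.2 to 149 CPM at 1 month and at 2.30, 5.76, 51.5 and 31.1 CPM at 3 months.

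The progesterone-response list held 26 tested members, of which 8 were shared and lower and 1, Cebpb, was shared and higher (5.50% and 4.16% of all genes). Its median log2 fold change was -0.90, and -0.91 without the 3 libraries. None passed on the 8 libraries, and 9 passed as lower and 2 as higher with all 24 libraries in the fit (4.43% and 6.52% of all genes). Pgr, the progesterone receptor, was at 221, 142, 210 and 164 CPM at 1 month and at 7.08, 14.5, 161 and 60.7 CPM at 3 months. Lesion 3 at 3 months lay within the 1-month range, lesion 4 below it and lesions 1 and 2 far below it (log2 fold change -1.63 ± 0.86, adjusted p = 0.442 by edgeR). Ihh, the epithelial hedgehog ligand, was at 30.3, 14.2, 31.1 and 17.7 CPM and at 35.2, 0.558, 8.40 and 4.68 CPM. Its highest 3-month value was in the library with ovary, and without the 3 libraries its log2 fold change moved from -0.96 to -2.03 (adjusted p = 0.0860 by edgeR).

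On the receiving side of the pathway, Gli1, a transcription factor and target of hedgehog signalling picked with its values known, was at 81.0 to 158 CPM at 1 month and at 22.0, 4.65, 60.3 and 28.4 CPM at 3 months. Hand2 was at 55.0, 34.6, 76.6 and 43.5 CPM and at 0.84, 8.06, 22.0 and 15.4 CPM. Both genes were lower in each 3-month lesion, lesion 3 included, in which Pgr was within the 1-month range. Without the 3 libraries the log2 fold changes were -1.59 for Gli1 and -1.67 for Hand2, and neither passed the edgeR test (adjusted p = 0.150 and 0.0788).

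Lrp2, the endocytic receptor megalin, was far apart between the times, at 899, 229, 740 and 371 CPM at 1 month and at 2.60, 17.0, 81.2 and 5.13 CPM at 3 months. Its log2 fold change was -4.43 ± 1.16 (adjusted p = 0.264 by edgeR). Gata2, a transcription factor of the uterine progesterone response, was at 295, 149, 245 and 176 CPM and at 14.9, 12.2, 107 and 74.5 CPM. Sox17, an epithelial and endothelial transcription factor, was at 82.3 to 180 CPM and at 11.9 to 73.9 CPM. Hdc, which makes histamine in mast cells and in uterine epithelium, was at 381, 155, 412 and 261 CPM and at 61.3, 25.8, 84.9 and 38.6 CPM (log2 fold change -2.55 ± 0.45). Hdc and Gata2 were the 2 shared members of the 13 tested mast cell and eosinophil genes, and both were lower. Of all genes 5.50% were shared and lower. The median of that list was 0.74.

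The remaining genes of the uterine panel had no steady direction. Lif, the cytokine of implantation, was at 5.08 to 7.29 CPM at 1 month and at 0.803, 3.86, 10.05 and 8.46 CPM at 3 months. Foxa2, the gland factor, was at 0.554, 7.50, 1.69 and 0.769 CPM and at 2.33, 0.116, 2.83 and 1.77 CPM, under the 14.1 to 22.3 CPM of eutopic uterus in every lesion. Ltf, lactoferrin, an estrogen-induced epithelial secretion, was at 293, 1002, 664 and 1032 CPM and at 42.5, 1.81, 2099.7 and 946 CPM. The log2 fold change was -0.20 for Lif, -0.59 for Foxa2 and 0.03 for Ltf over the 8 libraries, and 0.54, 1.18 and 1.19 without the 3. The sign of Ltf turned when single lesions were left out, to -1.20 without lesion 3 at 3 months.

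Wnt pathway genes were mixed. Of 27 tested members 6 were shared and lower, 1 was shared and higher (Sfrp4, a secreted inhibitor), where 5.50% and 4.16% of all genes were, and the median log2 fold change was -0.32. Fzd2, a Wnt receptor, was at 89.4, 56.3, 87.0 and 70.7 CPM at 1 month and at 31.5, 29.2, 43.0 and 33.1 CPM at 3 months. The 4 values at 3 months lay close together (log2 fold change -1.17 ± 0.19, adjusted p = 0.243 by edgeR). The part of other tissues in the Fzd2 difference was not tested. Lef1, a nuclear effector of the pathway, was at 22.5 to 30.6 CPM and at 2.97, 4.39, 10.6 and 11.7 CPM. Without the 3 libraries Lef1 passed as lower (log2 fold change -1.33, adjusted p = 0.0392 by edgeR) and Fzd2 did not (-1.13, 0.0620).

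Epithelial and smooth muscle lists had negative medians that were nearer to 0 without the 3 libraries. Of 20 epithelial genes 5 were shared and lower (Cdh1, Cldn3, Esrp1, Grhl2 and Ovol1), where 5.50% of all genes were, and the median log2 fold change went from -0.80 over the 8 libraries to 0.10 without the 3. Cldn3, a tight junction protein, was at 139, 71.8, 135 and 80.9 CPM at 1 month and at 6.42, 0.697, 56.1 and 23.7 CPM at 3 months. The summed list was at 288 and 82.6 CPM in lesions 1 and 2 at 3 months and at 1934 and 1259 CPM in lesions 3 and 4, with 1324 to 1759 CPM at 1 month. Of 18 smooth muscle genes 6 were shared and lower and 1, Synm, was shared and higher (5.50% and 4.16% of all genes), with a median of -0.91, and -0.48 without the 3 libraries. Synm, an intermediate filament protein that skeletal muscle also holds, was at 86.7 to 139 CPM at 1 month and at 152, 650, 270 and 202 CPM at 3 months.

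Lymphatic endothelial genes were higher at 3 months. All 8 members had a positive log2 fold change, with a median of 1.55, and 1.43 without the 3 libraries. 4 were shared and higher (Reln, Flt4, Mmrn1 and Prox1), where 4.16% of all genes were, of which Mmrn1 and Prox1 were chosen after their values were seen. Reln, a secreted protein that lymphatic vessels make, was at 11.1, 14.3, 13.6 and 4.44 CPM at 1 month and at 34.1, 53.2, 26.3 and 43.0 CPM at 3 months (log2 fold change 1.83 ± 0.40, adjusted p = 0.253 by edgeR). Flt4, the VEGFC receptor, was at 23.97, 27.8, 31.8 and 13.03 CPM and at 61.8, 66.96, 39.5 and 74.7 CPM (1.31 ± 0.31, adjusted p = 0.256 by edgeR). Prox1, the master transcription factor of lymphatic identity, was at 1.62 to 12.7 CPM and at 14.7 to 22.1 CPM.

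None of the 8 passed on the 8 libraries or without the 3. With all 24 libraries in the fit 5 passed as higher, where 6.52% of all genes did. Lesion 4 at 1 month was the lowest for Reln, Flt4, Mmrn1 and Prox1. Ccbe1, described above, and Flt4 act in the same pathway, and both were higher in each 3-month lesion. Lyve1, also a marker of tissue macrophages, overlapped between the groups. The blood endothelial genes had a median of 0.03, with 2 of 20 shared and higher, where 4.16% of all genes were. Among them was Cldn5, a tight junction protein of endothelium, at 14.5 to 18.1 CPM and at 44.2, 24.9, 20.7 and 34.1 CPM.

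Glycolysis and hypoxia genes stood higher, with 21 of 23 positive and a median log2 fold change of 0.69. 5 were shared and higher (Aldoa, Bnip3, Gapdh, Tpi1 and Pgam1), where 4.16% of all genes were. With all 24 libraries in the fit 10 passed as higher, where 6.52% of all genes did, and without the 3 libraries 5 passed as higher, where 1.37% did. Aldoa, the aldolase isoform that skeletal muscle holds in quantity, was at 359, 582, 365 and 489 CPM at 1 month and at 720, 4573, 1835 and 1549 CPM at 3 months. Its order among the 3-month lesions was that of the muscle sum. Bnip3, a hypoxia-induced mitochondrial protein, was at 22.9, 27.0, 17.5 and 31.7 CPM and at 79.0, 112, 71.9 and 42.4 CPM (log2 fold change 1.61 ± 0.31, adjusted p = 0.243 by edgeR). Gapdh, a glycolytic enzyme picked with its values known, was at 316 to 452 CPM and at 458, 1680.0, 858 and 775 CPM, so that lesion 1, without muscle, was just above the highest 1-month library. The part of muscle RNA in the glycolytic genes was not tested.

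Matrix genes were mixed in direction. The fibrillar collagen and matrix list had a median log2 fold change of 0.08, with 2 of 26 members shared and lower (Col1a1 and Col5a1, chosen after their values were seen) and 2 shared and higher (Comp and Thbs1), near the shares of all genes (5.50% and 4.16%). Col1a1, the main fibrillar collagen chain, was at 3319.6 to 5108 CPM at 1 month and at 474, 2608, 2863 and 2322 CPM at 3 months. Comp, a cartilage and tendon matrix protein, was at 0.751, 1.36, 0.679 and 0.437 CPM and at 5.81, 9.23, 2.38 and 8.52 CPM (log2 fold change 2.99 ± 0.54, adjusted p = 0.243 by edgeR). Thbs1, a matricellular protein that activates TGF-beta, was at 329, 301, 377 and 254 CPM and at 657, 417, 738 and 558 CPM (0.89 ± 0.22, adjusted p = 0.261 by edgeR).

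Among 27 matrix-remodelling enzymes and inhibitors, 2 were shared and higher (Timp4 and Plau) and 1 was shared and lower (Adam12), near the shares of all genes (4.16% and 5.50%), so the genes named are described singly. Adam12, a metalloprotease of regenerating mesenchyme, was at 87.7, 45.1, 99.8 and 70.6 CPM at 1 month and at 28.8, 27.8, 29.9 and 19.7 CPM at 3 months, with 3-month values in a narrow range. It passed without the 3 libraries (log2 fold change -1.81, adjusted p = 0.0404 by edgeR). Plau, the urokinase protease, was at 26.1, 64.5, 27.1 and 61.0 CPM and at 180, 114, 103 and 92.6 CPM. Mmp13, a collagenase, was at 0.679, 4.601, 1.38 and 2.93 CPM and at 1.34, 26.3, 39.9 and 21.4 CPM, and passed without the 3 libraries (log2 fold change 4.19, adjusted p = 0.0463 by edgeR). Plau and Mmp13 were chosen after their values were seen.

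**Figure D5:**
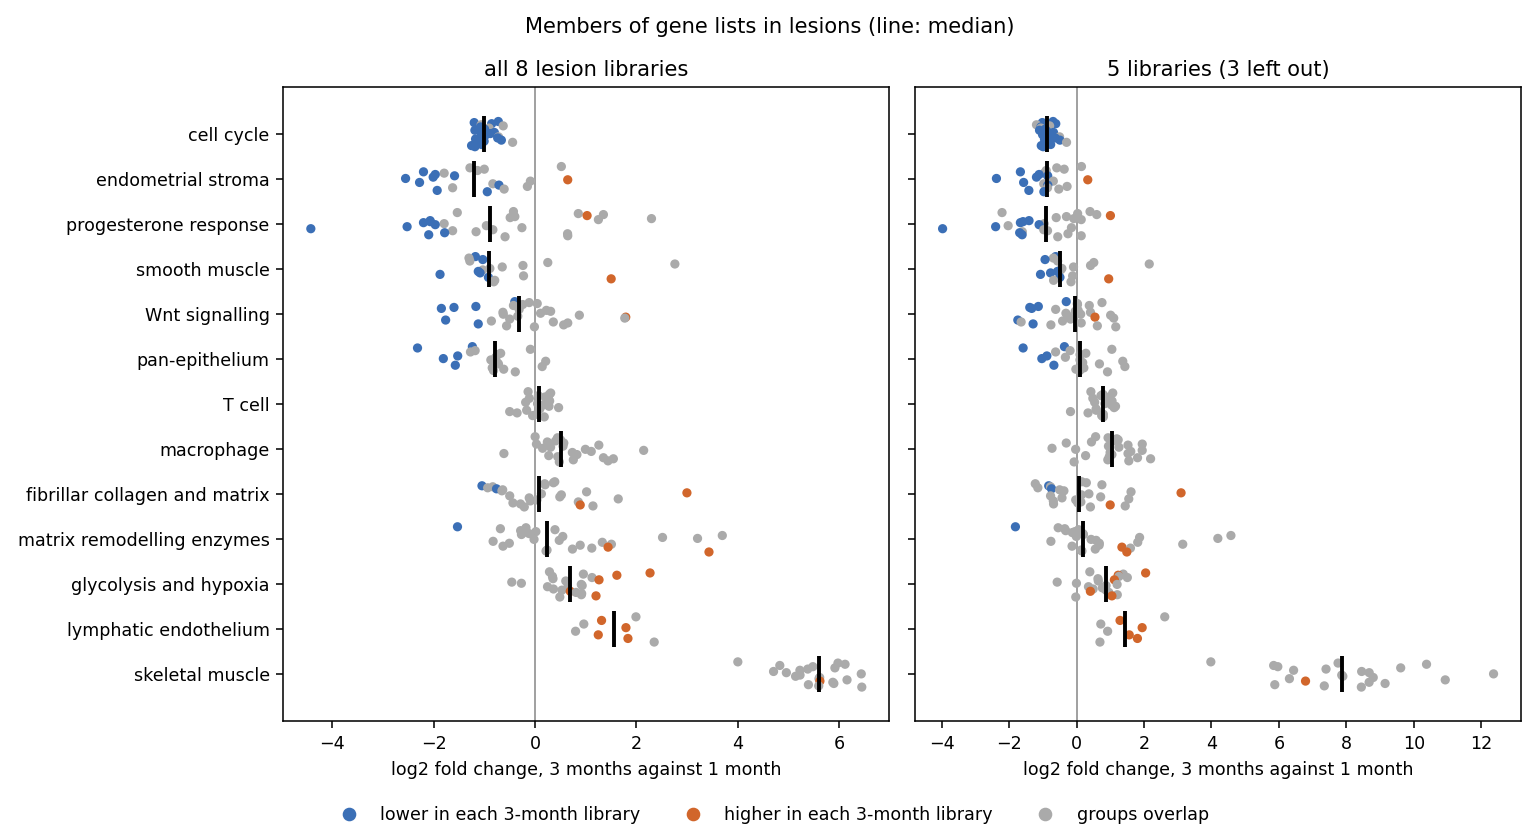
Log2 fold change of each tested member of 13 gene lists, 3-month against 1-month lesions, over all 8 libraries (left) and with lesions 1 and 2 at 3 months and lesion 2 at 1 month left out (right, where the x axis has another range). Points are genes, coloured in both panels by whether each 3-month library lies below (blue) or above (orange) each 1-month library over all 8, and black lines are medians, which for cell-cycle genes lie at -1.001 and -0.86 and for epithelial genes at -0.80 and 0.10.

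Immune genes differed widely between the libraries of a group. None of 20 T cell, 16 NK and cytotoxic, 25 macrophage, 16 dendritic cell and MHC class II, 25 chemokine, 20 complement or 24 interferon-response genes was shared in either direction, and 0 of them passed on the 8 libraries. Of all genes 4.16% were shared and higher and 5.50% shared and lower. Of 18 B and plasma cell genes 1 was shared and lower, Prdm1, near the share of all genes. Prdm1, a transcription factor of plasma cells and other cell types, was at 64.4 to 70.5 CPM at 1 month and at 5.90, 29.7, 52.9 and 52.8 CPM at 3 months. It was named as the single such gene, after its values were seen. Cd3e, a subunit of the T cell receptor complex, was at 20.004, 49.8, 23.3 and 67.1 CPM at 1 month and at 1.64, 43.4, 29.8 and 74.1 CPM at 3 months. Apart from lesion 1 at 3 months, every lesion lay above the 2.90 to 6.84 CPM of eutopic uterus. Adgre1, the F4/80 antigen of macrophages, was at 90.2 to 189 CPM and at 17.1, 176, 138 and 239 CPM.

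24 of 25 macrophage genes had a positive log2 fold change, with a median of 0.50, and 1.05 without the 3 libraries, and 0 passed in either fit. Gpnmb, a glycoprotein of lipid-laden macrophages picked with its values known, was at 209, 794, 212 and 723 CPM at 1 month and at 14.1, 5554, 1405 and 1553 CPM at 3 months. Lesions 2 to 4 at 3 months exceeded each 1-month library and lesion 1 lay below them all (log2 fold change 2.14 ± 1.28, adjusted p = 0.493 by edgeR). The T cell genes had a median of 0.08, and 0.79 without the 3 libraries. These medians were -0.08 and 0.65 for NK and cytotoxic genes, and 0.30 and 1.14 for dendritic cell and MHC class II genes. For chemokine genes they were 0.34 and 1.03, and for complement genes 0.31 and 0.44. They were -0.25 and 0.41 for interferon-response genes, and -0.16 and 0.47 for B and plasma cell genes.

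The change in lesions was then set against the change in eutopic uterus between the same times, which shares the interval and the age of the mice. In edgeR's test of the difference over 16 libraries, 10 of 21627 genes (0.0462%) passed. 7 were lower in lesions relative to uterus (Pla2g10, Pllp, Nptx1, Psg25, Gm26744, Gm30694 and 2210404E10Rik) and 3 were higher (Fabp3, Lrrc2 and Gm15958). The difference of log2 changes was -3.81 ± 0.58 for Pllp, -6.14 ± 0.93 for Pla2g10 and 5.31 ± 0.83 for Lrrc2 (edgeR adjusted p = 0.0410 for each), and -2.91 ± 0.40 for Nptx1 and 3.34 ± 0.44 for Fabp3 (adjusted p = 0.0341 for both). In eutopic uterus the ranges of 9 of the 10 genes overlapped between the times, all but that of Gm15958. Nptx1 was at 27.4 to 41.7 CPM at 1 month and at 37.6 to 55.4 CPM at 3 months, and Lrrc2 at 0.315 to 0.609 CPM and at 0.327 to 0.456 CPM. Psg25 belongs to a family of close copies and was at most 0.393 CPM in any lesion, so its split of reads is uncertain. Gm26744, Gm30694, 2210404E10Rik and Gm15958 were also low, at most 1.09, 0.876, 0.340 and 2.04 CPM in any lesion. Psg25, Gm26744, Gm30694 and 2210404E10Rik had no read in most 3-month lesions, so the size of their differences is uncertain.

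Which genes passed depended on single libraries. No gene passed without lesion 1, 3 or 4 at 1 month, without any 1 of the 4 eutopic libraries at 1 month, or without eutopic library 2, 3 or 4 at 3 months. Without lesion 2 at 1 month 68 passed, without lesion 1 at 3 months 353 and without lesion 3 at 3 months 278, in each case with all 10 among them. Without eutopic library 1 at 3 months 10 passed, 7 of them the same genes. Without lesion 2 at 3 months 3 passed (Fabp3, Nptx1 and Mlf1), and without lesion 4 at 3 months 4 passed (Fabp3, Nptx1, Lrrc2 and Gm38593). With limma voom 242 passed and 6 of the 10 were among them, while Pla2g10 (adjusted p = 0.101), Pllp (0.0560), Gm26744 (0.0880) and Gm30694 (0.0512) were not. Without the 3 libraries that held ovary, muscle with fat and pancreas, 709 passed, again with all 10. Lesions 3 and 4 at 3 months, which remained, also held muscle. Lrp2, with a difference of -4.44 ± 1.12, and Hand2, with -2.01 ± 0.80, did not pass in the 16 libraries (adjusted p = 0.155 and 0.344 by edgeR).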

How the data were processed

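RNA sequencing of 24 mouse libraries in 6 groups was deposited as 1 table of raw read counts for 56691 genes, with no normalization by the authors. Per the submitters' processing notes, bcl2fastq 1.9.0, STAR 2.7.9a, edgeR and the genome build mm39 were used. Sources used here do not give the counting mode, strand setting or annotation release, and overlapping and near-identical genes are therefore uncertain. 77 symbols stood on more than 1 line.

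Tests used edgeR 4.0.16 under R 4.3.3. Low counts were removed by filterByExpr, libraries were scaled by TMM, and the quasi-likelihood p was adjusted by Benjamini-Hochberg over all genes tested, with a threshold of 0.05. Log2 CPM values used a prior count of 2. The test was also run on simulated data with 200 changed genes. Simulated libraries of a group shared the same gene means, so that run does not cover lesions that hold other tissues. CPM were computed from TMM-scaled library sizes. Alternatives were DESeq2 1.42.0, its size factors within edgeR, limma 3.58.1 (voom with sample weights), no filter, all 24 libraries in the fit, a replicate block, each library left out, and 3 libraries left out together.

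The members and the 40 gene lists (750 genes, 749 found in the table) were chosen with earlier results of these data known. Named genes were the 5 shared genes in each direction with the smallest unadjusted p, since no gene was called (protein coding, mean log2 CPM of at least 1), a uterine panel, members of each list by the same order, genes of single libraries and genes called in the test against eutopic uterus. Genes outside this rule were chosen after their values were seen. Promoter sequences came from RefSeq (GRCm38.p6) and were matched by symbol, with no coordinate taken to the build of the counts.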

Additional observations from a re-analysis of the deposited data

Results flagged for a closer look

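Of 194 groups of 4 values examined with Dixon's test, 27 held a library far from the other 3. For independent normal values chance marks about 1 in 20 groups. The genes and lists were chosen with the data known and some lists hold the genes, so these shares cannot be set against each other. In lesion 2 at 1 month these were the summed pancreas genes (137650 CPM), the summed muscle genes (2124.1 CPM), Cpb1 (9544.8 CPM), Pnliprp2 (811.18 CPM), Neb (53.648 CPM), Ryr1 (45.243 CPM), Foxa2 (7.5006 CPM), Klhl31 (5.7451 CPM) and Lrrc2 (2.1544 CPM), all above the other 3. Lesion 3 at 1 month was above them for the summed cell-cycle genes (1946.7 CPM), Mki67 (255.98 CPM) and Top2a (323.73 CPM), and below them for Hoxc8 (1.1378 CPM). Lesion 4 at 1 month was high for Timp4 (1.1179 CPM).

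Lesion 1 at 3 months stood above the other 3 for the summed ovary genes (26730.0 CPM), Cyp11a1 (7541 CPM), Lhcgr (2137.3 CPM), the summed Wnt genes (2544.1 CPM), ciliated-cell genes (317.59 CPM) and pancreas genes (35.71 CPM), and for the ciliated-cell genes Foxj1 (35.635 CPM) and Pifo (3.698 CPM). Lesion 2 at 3 months was high for the summed adipocyte genes (5346.3 CPM) and Lep, leptin (81.278 CPM), and low for the summed cell-cycle genes (455.15 CPM) and Top2a (40.395 CPM). Lesion 3 at 3 months was high for Rims3 (8.8796 CPM).

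In 10 genes the change from 1 to 3 months in lesions differed from that in eutopic uterus by edgeR's test of the difference. The log2 differences were -6.14 for Gm26744, -6.14 for Pla2g10, -5.97 for Gm30694, -5.07 for 2210404E10Rik, -5.04 for Psg25, -3.81 for Pllp, -2.91 for Nptx1, 3.34 for Fabp3, 3.68 for Gm15958 and 5.31 for Lrrc2. Those of Gm26744, Gm30694, 2210404E10Rik, Psg25 and Gm15958 come from low counts, so their size is uncertain.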

How the results depend on the processing

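In the lesion comparison, where edgeR called 0 genes, DESeq2 called 1038, limma voom 2, the fit of all 24 libraries 2435, and the fit without the 3 libraries with ovary, muscle with fat and pancreas 332. That last fit kept lesions 3 and 4 at 3 months, which also held muscle. Leaving out each lesion library in turn gave 0 to 1. For the difference from eutopic uterus, with 10 genes called, DESeq2 called 525, voom 242 (6 of the 10 among them, Pla2g10 and Pllp not), no filter on low counts 6 (all among the 10, without Psg25, Gm26744, Gm15958 and 2210404E10Rik), all 24 libraries 171 (9 of the 10, without Psg25), and the fit without the 3 libraries 709, and leaving out single libraries gave 0 to 353. The cause of these differences was not tested. DESeq2 size factors within edgeR, and robust estimation (added after seeing the data), left both counts at 0 and 10.

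With the replicate number as a block, 0 genes were called in lesions and 6 in the difference from eutopic uterus, 3 of them among the 10 (Fabp3, Lrrc2 and Nptx1). Deviations from the group means of lesions with the same number at 1 and 3 months correlated, across genes, at 0.244, 0.164, -0.00551 and 0.193. Not every library correlated best with its own number. Lesions were compared only between the times, so this cannot show whether lesion and eutopic libraries of the same number share a mouse. That pairing was not tested. The sign turned under the block for Foxa2 (0.28), Ltf (-1.76) and Icos (-0.20).

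Other signs that turned were those of Lif (voom 0.20, without the 3 libraries 0.54), Foxa2 (0.31 and 1.18), Ltf (voom -0.52) and Gata6 (-0.028 without the 3 libraries). With single lesions left out, Lif ran from -0.60 to 0.17, Foxa2 from -0.93 to 0.80, Ltf from -1.20 to 0.46 and Icos from -0.12 to 0.87. The cause was not tested.

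Counts of genes whose groups do not overlap, an alternative added after seeing the data, grew without the 3 libraries from 1099 to 4449 lower and from 831 to 3828 higher, and to 15 for stroma, 15 for progesterone response, 18 for glycolysis and 22 for muscle. With single lesions left out they ran from 1165 to 2334 lower and from 958 to 2088 higher. The list counts then ran from 9 to 14 (stroma), 8 to 13 (progesterone response), 6 to 10 (smooth muscle), 5 to 9 (epithelium), 5 to 15 (glycolysis) and 1 to 22 (muscle). By definition these counts cannot fall when libraries are left out, so growth alone is not a result. The amounts over all genes differed between libraries. Cell-cycle, Wnt, lymphatic and ovary counts remained within 1.5 times of their value.

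Genes high in a single library numbered 415, 58, 3 and 7 in lesions 1 to 4 at 3 months at 4 times the others. At 16 times they numbered 6 in lesion 2 and 0 in lesion 3 at 3 months and 3 in lesion 4 at 1 month. With a minimum of 5 CPM they numbered 2 in lesion 1 at 1 month and 2 in lesion 4 at 3 months.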
